A study of Rattus norvegicus with 2 samples.

Results

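The cytosolic ribosomal protein genes were followed as a group in single-cell RNA sequencing of cartilage from Lewis rats. Members were chosen by symbol: every gene whose symbol is Rpl, Rps or Rplp with a number and at most 1 further letter, and Rpsa, listed for both libraries. This gave 75 of the 18147 genes listed for both, 27 of the small (40S) and 48 of the large (60S) subunit. Rplp1, Rps6, Rps7, Rps9, Rps13 and Rps26 were not among the listed symbols and were not analysed as members. There were 2 libraries. The control library came from Lewis rats without treatment, named sham in the series' design text. The other came from Lewis rats with collagen-induced arthritis (CIA), which had received type II collagen (which makes up most cartilage collagen) together with complete Freund's adjuvant and were collected on day 14. The labels give no transgene, age or number of animals, so each library may pool animals.

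Cytosolic ribosomal proteins are built with ribosomal RNA into the 2 subunits that translate nuclear-encoded mRNA, and their own mRNAs are among the most abundant in most animal cells. These mRNAs usually begin with a run of pyrimidines at the 5′ end, the terminal oligopyrimidine tract, through which the mTOR pathway controls their translation together. Growing cells and immature blood cells are known for high levels, and cells filled with a single product, such as late erythroid cells, for low levels. Most members have 1 active gene and many processed pseudogenes. A few, such as Rpl3l, Rpl10l, Rpl39l and Rps27l, are paralogues with a restricted or regulated expression of their own.

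The control library held 5456 cells and 76927821 UMIs (unique molecular identifiers, each counting an RNA molecule once), and the CIA library 8622 cells and 105752977 UMIs. After filters on mitochondrial content and doublets, 5349 and 8409 cells remained, with a median of 11872 and 10473 UMIs per cell. 52 barcodes occurred in both libraries, against 53.2 for random draws from the 884736 possible barcodes. With 1 library per group there is no replicate, no test was possible, and each difference is between 2 libraries. All intervals are exact, cover 95% of counting error only, and say nothing of the spread between animals. Fibroblast RNA was also counted in other cells. Col1a1, a fibroblast collagen, stood at 1254 counts per 1000000 UMIs (CPM) in the macrophage or monocyte-like cells of the control library. The fibroblast-like cells of that library had 35870. How much of the macrophage value is free RNA was not tested. Immediate-early genes, which respond to tissue dissociation, took 0.817% of control and 0.367% of CIA UMIs, and models of mitochondrial ribosomal RNA 2.60% and 1.42%. The part of either in the results below was not tested.

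Because the pyrimidine tract lies at the start of the mRNA, a few windows around the annotated start are shown first. RefSeq promoter windows (build GRCr8, which is not the build of the counts) matched 58 of the 75 members by symbol. On the coding strand, 31 of the 58 (53.4%) had a run of at least 6 C or T bases that opened with C within 5 bases of the annotated start. Of all 27457 RefSeq windows, 9.75% had such a run. The lines below give 15 bases before and 15 after the start, 5′ to 3′ on the coding strand, with the run in capitals.
Rplp0 (chr12:46718376-46718405, minus strand): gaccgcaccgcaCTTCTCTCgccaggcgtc
Rpl37a (chr9:81748076-81748105, plus strand): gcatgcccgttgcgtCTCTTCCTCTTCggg
Rpl10 (chrX:157205835-157205864, plus strand): caggcgtgggagcgtCTCTTTTCCTCTggc
Rps27 (chr2:177964592-177964621, minus strand): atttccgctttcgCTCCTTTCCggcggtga
Rps18 (chr20:4933730-4933759, plus strand): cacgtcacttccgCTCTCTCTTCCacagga
Rpl3l (chr10:14258431-14258460, plus strand): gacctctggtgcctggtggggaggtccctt
The first 4 belong to abundant members and show the run at or next to the start. Rps18 carries it too, although few UMIs were counted at that gene, as described below. Not every abundant member has it: the windows of Rpl41, the most abundant of all, and of Rps2 had no such run. Rpl3l, the paralogue with the largest difference between the libraries, has no such run in its window. Among measured members, the 30 with a run had a median level of 1523 CPM in the control library and a median CIA over control ratio of 0.867, and the 24 without had 928 CPM and 0.879. The annotated start may differ from the start used in these cells, so a window without a run says only that the letters are not there.

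Member genes differed widely in their counted level, and the most abundant were the same kind in both libraries. Rpl41, a very short 60S protein, stood highest, at 5058 CPM in the control and 4319 in the CIA library. Next came Rplp0, the stalk protein that is often used as a reference gene, at 4043 and 3675. Rps2 had 3978 and 3411, and Rps27, a zinc-finger protein of the 40S subunit, 3038 and 2282. The 5 most abundant members held 19.8% of member UMIs in the control and 19.3% in the CIA library. 59 members were above 100 CPM in both libraries, and 16 were below 50 CPM in both, with none between. The lowest were Rpl8 with 1 and 2 UMIs in the control and CIA library, Rpl7a with 5 and 3, Rpl21 with 5 and 4, Rplp2 with 14 and 16, and Rpl35a with 27 and 35. These levels are not corrected for length, which matters less in 3′ counts.

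**Figure D1:**
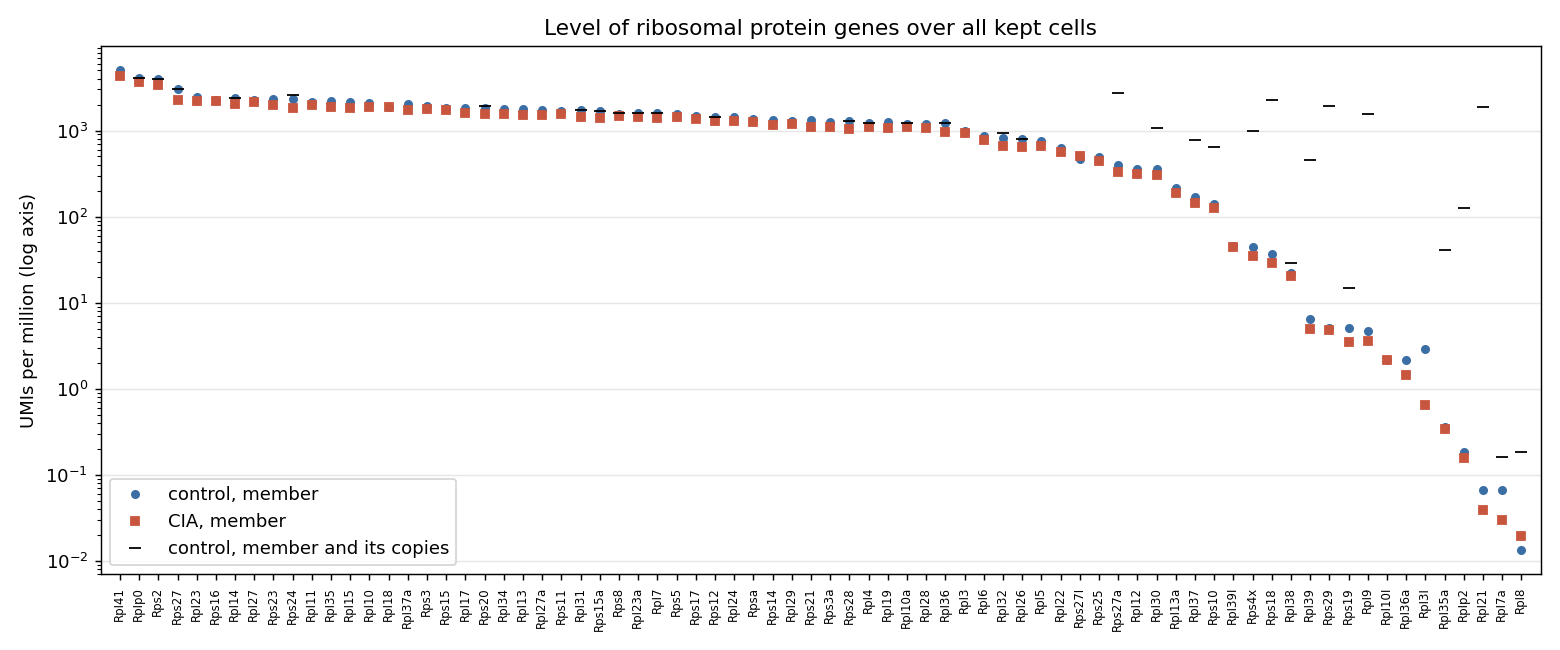
Level of the members in CPM (log axis; 1 member is left out of the plot) over all kept cells, in the control (circles) and CIA (squares) library, with members in order of their mean level. Dashes give the control level of a member together with its copies outside the symbol rule; most members stand above 100 CPM in both libraries, and several of the low ones stand among the high ones once their copies are added.

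Low counts at a member often stood beside high counts at a copy of the same family. Copies outside the symbol rule were found by their symbol or, for symbols made of an NCBI gene number, by the RefSeq name of that number. There were 57, in the families of 34 members and of the unlisted Rps7, Rps9, Rps13 and Rps26. RefSeq classed 32 of the 57 as pseudogenes. For 15 members, more of the family's control UMIs lay at copies than at the member. Rps18 had 37.2 CPM in the control library, and its copy Rps18l1 2199, which put 98.3% of the family at the copy. Rps29 had 5.13 CPM, beside 1938 at its copies. For Rpl21 the values were 0.0665 and 1874, and for Rpl9, on the 60S side, 4.69 and 1535. Rps27a, which is made as a fusion with ubiquitin, had 403 CPM, and Rps27a_2 2355. The share at copies was nearly equal in the libraries, for example 85.4% and 86.4% for Rps27a. Counts of these members are therefore uncertain, since near-identical sequences can split reads in ways the files do not show. Rpl8 and Rpl7a had no abundant copy under any name matched here, and their low counts were not resolved.

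Across all kept cells, the 75 members took 9.55% of UMIs in the control library (interval 9.54 to 9.55) and 8.39% in the CIA library (8.39 to 8.40). The CIA over control ratio was 0.879 (0.878 to 0.880). The median cell had 9.31% in the control library, with quartiles of 7.59 and 11.3, and 8.29% in the CIA library, with quartiles of 6.89 and 9.85. Cells of the 2 libraries thus overlapped over most of their range. With copies counted, those of Rps7, Rps9, Rps13 and Rps26 included, the shares were 11.1% and 9.70%, and the ratio was 0.877. The ratio of 60S to 40S UMIs was 1.57 in the control and 1.59 in the CIA library, with members only and no copies counted. Rps6, Rps7, Rps9, Rps13 and Rps26 of the 40S and Rplp1 of the 60S subunit are missing from it. The families of Rps18 and Rps29, and of Rpl21 and Rpl9, were counted mostly at copies. The ratio therefore does not give the balance of the subunits.

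Cell types were taken from marker genes, none of them a member, and are called by their markers with the ending -like. Each of their marker lists took its largest share of UMIs in the cells so named. The fibroblast list still took more UMIs than the type's own list in the lining, pericyte and B lineage gates, in the CIA T or NK gate and in the CIA chondrocyte gate (5.19% against 3.08%). Between cell types the member share differed more than between libraries. B lineage-like cells, immature B cells of which 88.1% were cycling by their markers, had the highest share, 17.4% over 67 control cells. No cell of the CIA library passed that gate. T or NK-like cells had 13.2% in 18 control and 12.4% in 31 CIA cells. Neutrophil lineage-like cells had 13.1% in 41 control and 6.76% in 75 CIA cells. Endothelial-like cells (672 and 547) had 11.7% and 11.2%, and chondrocyte-like cells 10.4% in 317 control and 8.33% in 38 CIA cells. Osteoclast-like cells (34 and 99) had 9.35% and 9.04%, pericyte or smooth muscle-like cells (31 and 63) 9.14% and 8.26%, and fibroblast-like cells (1732 and 2549) 8.90% and 8.31%. Macrophage or monocyte-like cells (1103 and 3089) had 8.02% and 7.98%, and lining or superficial zone-like cells (293 and 775), the Prg4-rich cells of joint surfaces, 7.60% and 6.48%. Erythroid-like cells were split: their median cell had 0.618% in the control library (22 cells) and 0.726% in the CIA library (18 cells), below that of every other type, while the sums over cells were 6.54% and 4.05%. T or NK-like cells stood above endothelial-like cells in both libraries, with overlapping quartile ranges.

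**Figure D2:**
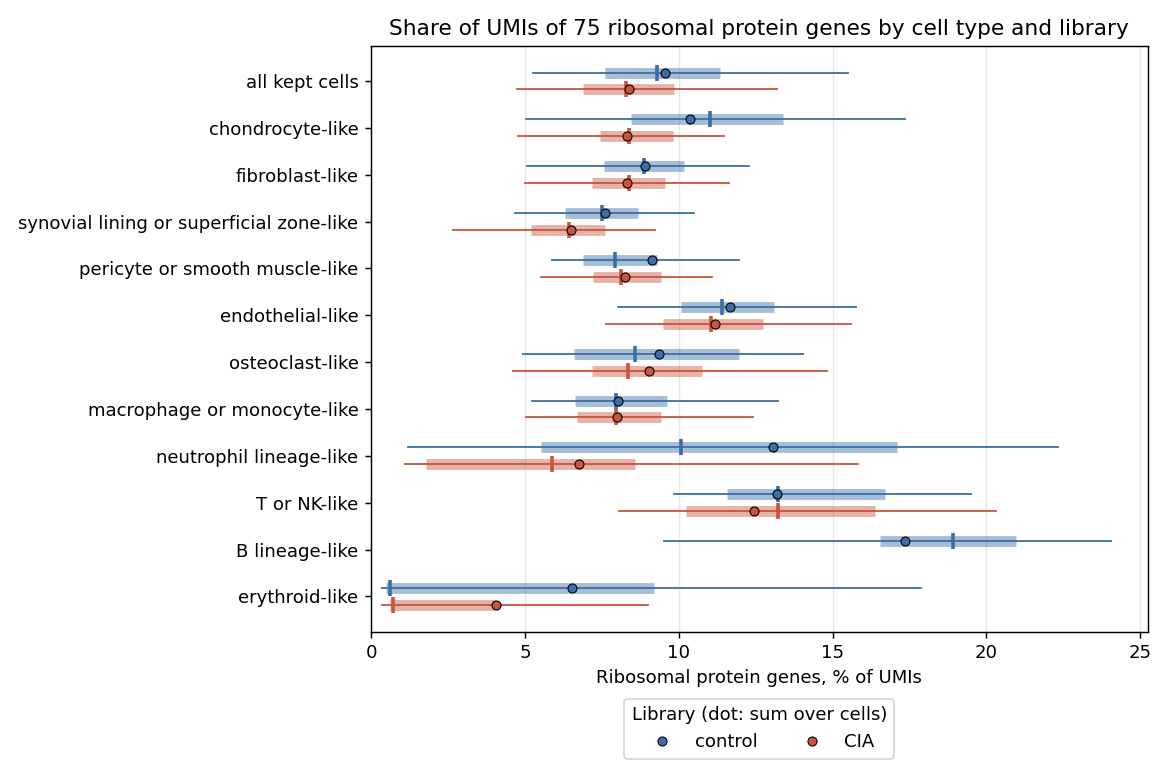
Share of UMIs at the 75 members by cell type in the control (upper, blue) and CIA (lower, red) library. Dots are the sum over cells, ticks the median cell, thick bars the quartiles and thin lines the 5th to 95th percentile of cells; the CIA dot is left of the control dot in all 10 types with cells in both libraries, and the quartile bars of the 2 libraries overlap in each of them.

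All 10 gated types with cells in both libraries had a lower summed share in the CIA library, but the size ran from near 1 to 0.517. The median cell was higher in the CIA library in pericyte or smooth muscle-like, T or NK-like and erythroid-like cells, and lower in the other types. In pericyte or smooth muscle-like cells it went from 7.92% to 8.12%, and in T or NK-like cells from 13.21% to 13.23%. The 4 types with at least 50 cells in each library were compared. The ratio was 0.853 (0.849 to 0.856) in lining or superficial zone-like, 0.934 (0.932 to 0.936) in fibroblast-like and 0.957 (0.954 to 0.960) in endothelial-like cells. In macrophage or monocyte-like cells it was 0.996 (0.994 to 0.998), and its direction and size moved with the processing: it was 1.002 without the cells of cluster 6, 0.962 without mitochondrial genes and ribosomal RNA models in the denominator, 0.930 in cells of 5000 to 15000 UMIs and 0.926 with TMM scaling. The lining-like gate drew on different clusters: 43.7% of its control cells were in cluster 12 (Clic5-high) and 90.6% of its CIA cells in cluster 5. Within cluster 5, lining-like cells had 7.59% in the control and 6.41% in the CIA library. Cluster 12 as a whole went the other way, from 7.79% in 212 control to 9.56% in only 25 CIA cells. Chondrocyte-like cells had the ratio 0.802, but only 18 of the 38 CIA cells were in the chondrocyte cluster and another 18 in cluster 5. Their immediate-early genes took 2.03% of control and 0.392% of CIA UMIs. In neutrophil lineage-like cells the ratio was 0.517. Of their 41 control cells 20 were in cluster 6, led by granule genes, and of their 75 CIA cells 10. Another 39 of the CIA cells were in the defensin and S100a8 cluster 11.

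The same cells were also clustered with the members left out, which gave 14 clusters. Cluster 6, led by Ctsg, Elane and Mpo of early granulocytes, had the highest share, 17.0% in 308 control and 15.5% in 155 CIA cells. By gate this cluster was mixed: 265 cells were ungated, 73 macrophage or monocyte-like, 60 B lineage-like, 30 neutrophil lineage-like and 25 T or NK-like. The 60 B lineage-like cells were all from the control library. Fcnb-expressing monocytes (cluster 8) had 11.7% and 11.9%, endothelial cluster 10 11.7% and 11.2%. The haemoglobin cluster 7, with 13 cells in each library, had 0.510% and 0.922%. Of the 9 clusters with at least 50 cells in each library, 5 had a lower and 4 a higher share in the CIA library. All 4 higher ones were clusters in which most cells were macrophage or monocyte-like: cluster 2 went from 8.14% to 8.19%, cluster 3 from 7.57% to 8.21%, cluster 4 (C1q genes) from 7.17% to 7.47%, and cluster 8 as above. The fibroblast clusters 0 and 1 went from 9.18% to 8.47% and from 9.24% to 8.86%, and cluster 5 from 8.92% to 7.75%. In the macrophage or monocyte-like gate, 54.1% of control cells were in cluster 3 and 43.2% of CIA cells in cluster 4, which has the lowest share of the 4. With CIA shares per cluster at the cluster weights of the control library, the CIA share was 9.03%, against 9.55% measured in the control and 8.39% in the CIA library. With control shares at CIA weights it was 8.88%. Each of these mixed values lies between the measured ones.

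**Figure D3:**
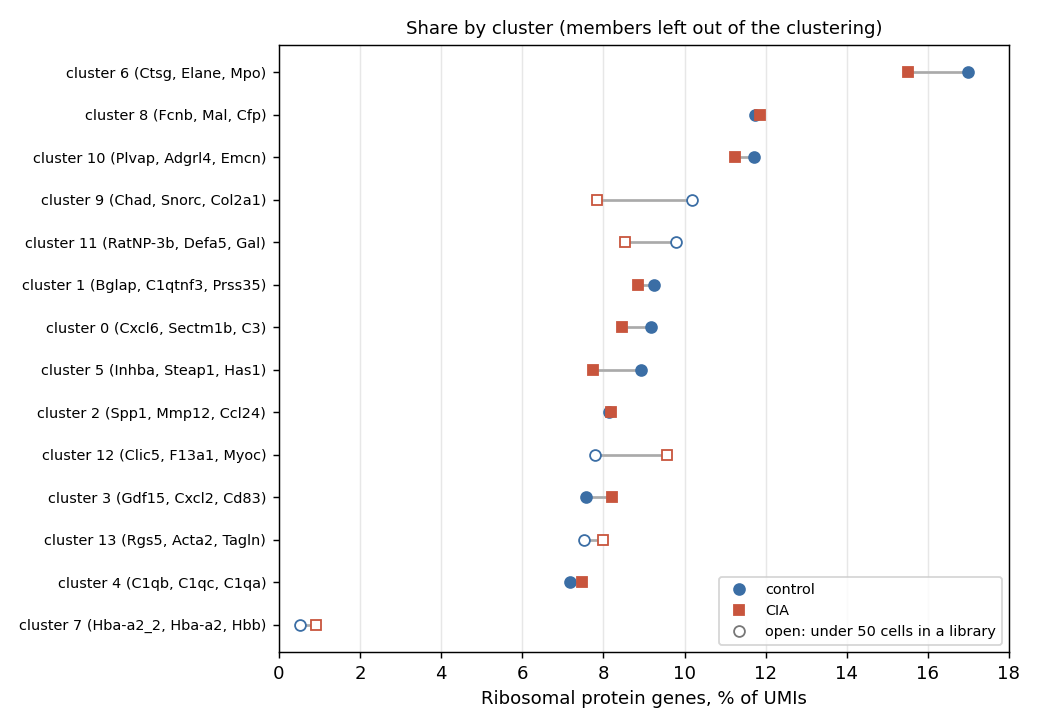
Share of UMIs at the 75 members in each cluster (named by number and leading genes) in the control (circle) and CIA (square) library. Cluster 6 stands highest and cluster 7 near 0. Among clusters with at least 50 cells in each library, the square lies right of the circle in the macrophage clusters 2, 3, 4 and 8. It lies left of it in clusters 0, 1, 5, 6 and 10.

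Depth moved with the share in some types. Control macrophage or monocyte-like cells with 4000 to 8000 UMIs had 9.04% and those with 20000 to 90000 had 7.32%, while endothelial-like cells had 11.7% and 11.8% at these depths. The CIA values of the macrophage or monocyte-like cells were 8.80% and 7.46%, so the direction between the libraries was not the same at both depths. Cluster 3, with the largest ratio of the macrophage clusters, had a median of 13827 UMIs per control cell and 8662.5 per CIA cell. Cycling cells had no common direction: in the control library they had 8.39% against 8.95% of other fibroblast-like cells, and 8.42% against 7.96% of other macrophage or monocyte-like cells. Mitochondrial ribosomal RNA differed most between the libraries in the macrophage or monocyte-like cells, 5.05% against 1.85%. Its part in their ratio was not tested.

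Members moved as a block between the libraries. Of the 75, 70 had at least 100 UMIs over both libraries and were measured over all kept cells. 68 of these were lower in the CIA library, 65 with an interval wholly below 1, and the median log2 ratio was -0.18, against -0.02 over the 12822 measured genes. Calls followed a fixed rule of size: the ratio had to reach 2-fold, and the near bound of its interval had to be past 1.5-fold. As a share of all UMIs, 1 member, Rpl3l, passed it as lower and none as higher, where 4.27% of all measured genes passed as lower and 0.811% as higher. Rps27 was the most reduced of the abundant members, at 0.751 (0.747 to 0.756). Rpl36 had 0.792 and Rps24 0.802. At the other end stood Rpl18 with 0.995 (0.988 to 1.002) and Rps16 with 0.962. Rps27l was the only member with an interval above 1, at 461 and 505 CPM and a ratio of 1.09 (1.08 to 1.11). In fibroblast-like cells 59 of 68 measured members were lower in the CIA library, in lining-like cells 62 of 63, in endothelial-like cells 44 of 64, and in macrophage or monocyte-like cells 34 of 66. Of all measured genes, 38.7% were lower in fibroblast-like, 56.3% in lining-like, 33.6% in endothelial-like and 38.2% in macrophage or monocyte-like cells. No member passed the rule in these 4 types, where 1.07% (fibroblast), 2.7% (lining), 1.58% (endothelial) and 4.05% (macrophage or monocyte) of measured genes passed as lower and 0.276%, 1.12%, 0.461% and 0.43% as higher. In neutrophil lineage-like cells 59 of 59 were lower and 26 passed the rule, with 9.03% of genes passing as lower, 3.32% as higher, and the cluster make-up given above.

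Relative to the member total, members hardly departed from each other. This measure takes each gene's share of member UMIs, so that a common change drops out. Over all kept cells, only Rpl3l passed the rule, where 3.24% of all measured genes passed as lower and 1.57% as higher per member UMI. For 90% of the measured members the log2 ratio lay between -0.22 and 0.14. None passed in the 4 compared types. In those types 0.371% (fibroblast), 2.12% (lining), 0.611% (endothelial) and 0.441% (macrophage or monocyte) of genes passed as higher per member UMI, and 0.884%, 1.83%, 1.46% and 4.03% as lower. In chondrocyte-like cells Rpl39l and Rps27l passed as higher, where 16.7% of all measured genes did and 4.35% passed as lower. The member share itself had a ratio of 0.802 there, which raises other genes on this measure. By share of all UMIs, 6.05% of genes passed as higher. Members are centred on their own total, so their count cannot be read against this background. No member passed relative to the total in neutrophil lineage-like cells, where 25.5% of genes passed as higher and 0.598% as lower per member UMI. The same limit holds there: the member share had a ratio of 0.517, and 3.32% of genes passed as higher by share of all UMIs.

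**Figure D4:**
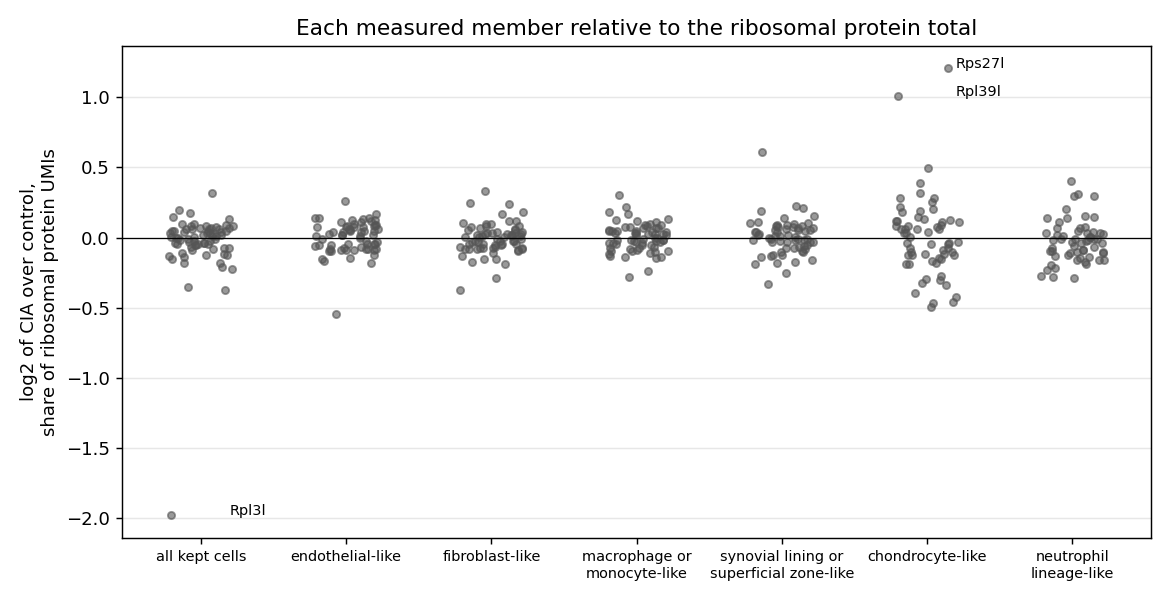
Each point is a measured member: the log2 ratio of its share of member UMIs, CIA over control (y axis), by cell type (x axis; points are spread sideways for legibility). Most points lie within 0.5 of 0; the named genes are past 1, Rpl3l over all kept cells and Rps27l and Rpl39l in chondrocyte-like cells.

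Rpl39l, a paralogue of the 60S exit tunnel protein Rpl39 known from testis, was the member with a cell type pattern of its own. Its level in the control library was 109 CPM in chondrocyte-like, 63.5 in fibroblast-like, 52.1 in lining-like and 29.3 in pericyte or smooth muscle-like cells. It was 2.10 in endothelial-like and 1.96 in macrophage or monocyte-like cells, and 0 UMIs were counted in 34 osteoclast-like cells, which allows up to 4.44 CPM. In the CIA library the levels were 177, 70.4, 68.0 and 74.0 CPM in the same 4 connective tissue types, 3.24 in endothelial-like, 1.99 in macrophage or monocyte-like and 4.37 in osteoclast-like cells. Neutrophil lineage-like cells had 5.41 and 24.0 CPM (3 and 17 UMIs), and the erythroid, B lineage and T or NK types had at most 10 UMIs. The connective tissue types were above the endothelial, macrophage and osteoclast types in both libraries. The lowest of them, the control pericyte-like cells, rested on 12 UMIs, of which 1 of the 31 cells held 8. The fibroblast over macrophage ratio of CPM was 32.4 in the control and 35.3 in the CIA library. For Col1a1, the fibroblast collagen, it was 28.6 and 34.7. How much of the macrophage level of Rpl39l is free RNA was not tested. By clusters the levels in the control library were 94.8 CPM in cluster 1, 84.1 in cluster 5, 49.8 in cluster 0 and 108 in chondrocyte cluster 9. They were at most 3.34 CPM in macrophage clusters 2, 3, 4 and 8. Pericyte cluster 13 had 4.70 CPM from 1 UMI in the control and 102 CPM from 25 UMIs in the CIA library. The gene Rpl39 itself showed no such pattern, with 6.12 CPM in fibroblast-like and 4.93 in macrophage or monocyte-like control cells, although 98.6% of its family's UMIs lay at copies.

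Each type was also set against all other gated cells of its library, per member UMI, in 16 contrasts of 8 types. 20 of 1112 measured values passed the size rule. Rpl39l made up 13 of them, Rpl3l and Rpl10l 3 each and Rps27l 1. For Rpl39l in the control library the share of member UMIs was 3.58 (3.27 to 3.92) times that of the other cells in fibroblast-like and 3.00 (2.68 to 3.35) times in chondrocyte-like cells. In macrophage or monocyte-like cells it was 20.6-fold lower and in endothelial-like cells 27.4-fold lower than in the rest, and in the CIA library 28.5-fold and 17.1-fold lower. Cell types differ in many genes, so the background of these contrasts is wide. In the control library the genes passing as higher were 4.85% in chondrocyte-like, 8.2% in endothelial-like, 10.4% in fibroblast-like, 12.6% in macrophage or monocyte-like, 2.3% in neutrophil lineage-like, 4.67% in osteoclast-like, 3.11% in pericyte-like and 8.76% in lining-like cells. Those passing as lower were 24.1%, 20%, 16.2%, 22.7%, 15.7%, 12.6%, 3.26% and 8.85% in the same order. In the CIA library 3.78%, 8.61%, 11.3%, 10.8%, 3.74%, 4.49%, 5.15% and 11.9% passed as higher in that order, and 5.36%, 20.4%, 15.4%, 25%, 2.75%, 21.2%, 5.69% and 10.3% as lower. The members, with 20 of 1112 values, were below these shares. Per member UMI the members are centred on their own total, so a lower share among them is partly built in. Rpl10l, a paralogue of Rpl10 also known from testis, had low counts, with 3.35 CPM in fibroblast-like and 0.696 CPM in macrophage or monocyte-like control cells (81 and 11 UMIs). In the CIA library these values were 2.93 and 1.08 CPM (87 and 37 UMIs), and endothelial-like cells had 3.24 CPM (21 UMIs). Control chondrocyte-like cells had 1.17 CPM from 4 UMIs. The order of types was thus not that of Rpl39l.

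Rpl39l was found in a minority of cells of the fibroblast-like type, and its UMIs were more concentrated there than those of Rps4x. In fibroblast-like cells 31.8% (control) and 31.9% (CIA) had at least 1 UMI, against 2.45% and 2.14% of macrophage or monocyte-like cells at median depths of 12418, 10559, 12353 and 9616 UMIs. With every cell thinned to 4365 UMIs, the depth of the shallowest, these shares were 18.2%, 19.8%, 0.931% and 0.923%. Rps4x, a 40S gene, had 44.9 CPM in control fibroblast-like cells against 63.5 for Rpl39l, and a UMI in 43.6% of them against 31.8%. After thinning these shares were 17.96% and 18.2%, so at equal depth the share of cells with a UMI was nearly the same despite the higher level of Rpl39l. The 10% of control fibroblast-like cells with the most Rpl39l UMIs held 59.2% of them. For Rps4x that value was 40.4%. Over all kept control cells, 95.5% of the UMIs of the Rps4x family lay at its copy Rps4x_2. The count of Rps4x is therefore uncertain, and so is its use as a comparison.

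The difference of Rpl39l between the libraries was small where many cells were measured. Its CIA over control ratio of CPM was 1.11 (1.04 to 1.18) in fibroblast-like and 1.30 (1.13 to 1.51) in lining-like cells. In chondrocyte-like cells it was 1.62 (1.24 to 2.08), from 373 and 74 UMIs, and 2.01 (1.55 to 2.59) relative to the member total. 1 of the 38 CIA cells held 13.5% of the UMIs, and 18 of the 38 belonged to cluster 5. Without the top cell of each library the relative ratio was 1.95 (1.47 to 2.55), no longer past the size rule.

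Rps27l, a paralogue of Rps27 that is a known p53 target, varied most across types among members with at least 100 UMIs in every sum. Its share of member UMIs was lowest in chondrocyte-like control cells (0.236%) and highest in pericyte or smooth muscle-like cells (0.737%), a 3.12-fold span. In the CIA library the span was 2.03-fold, from endothelial-like (0.415%) to pericyte or smooth muscle-like cells (0.844%). The median member spanned 1.33-fold in the control and 1.27-fold in the CIA library over 56 members and 8 types. The level of Rps27l in chondrocyte-like cells was 245 CPM in the control and 454 in the CIA library, a ratio of 1.85 (1.57 to 2.17) from 835 and 190 UMIs. Within chondrocyte cluster 9 alone it was 229 CPM in 355 control and 430 CPM in 24 CIA cells. Relative to the member total the ratio was 2.31 (1.96 to 2.71), and without the top cell of each library 2.29 (1.92 to 2.71). Its partner Rps27 went the other way in these cells, from 3501 to 2039 CPM. Rps27l in macrophage or monocyte-like cells had 401 and 493 CPM, and in endothelial-like cells 473 and 464. Of the 6 p53 targets measured in chondrocyte-like cells, Rps27l among them, 2 were lower in the CIA library and 4 higher, with a median log2 ratio of 0.58 where that of all measured genes was 0.27. Cdkn1a, a cell cycle inhibitor, had 190 and 35.8 CPM, and Mdm2, which degrades p53, 138 and 33.4. Phlda3 had 22.3 and 141. All 3 passed the size rule, where 6.05% of genes passed as higher and 5.91% as lower. In macrophage or monocyte-like cells Cdkn1a had 211 and 82.0 CPM, Mdm2 85.6 and 29.6, and Sesn2 20.3 and 10.04, all 3 past the rule, where 4.05% of genes passed as lower. Of the 8 targets measured there, 4 were lower, with a median log2 ratio of -0.15.

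**Figure D5:**
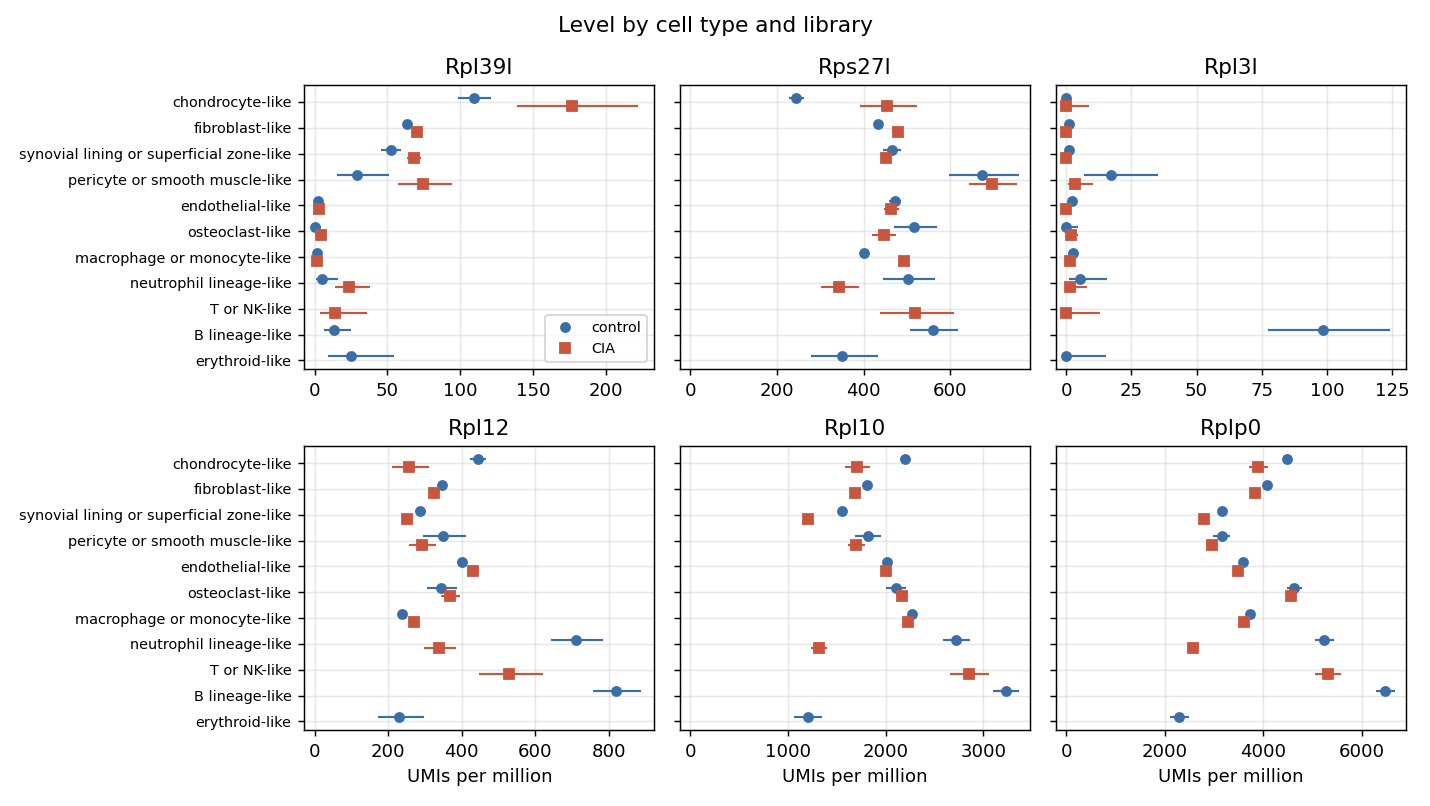
Level in CPM of 6 members by cell type in the control (circles) and CIA (squares) library, with exact 95% counting intervals as lines, for types with at least 20 cells. Rpl39l is highest in the 4 uppermost types in both libraries, Rpl3l stands at 98.6 CPM in B lineage-like cells, and Rplp0, Rpl10 and Rpl12 are spread over all types.

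Rpl3l, a paralogue of Rpl3 known from heart and skeletal muscle, had 219 UMIs in the control and 66 in the CIA library (2.91 and 0.648 CPM). Relative to the member total the ratio was 0.253 (0.189 to 0.335). Its highest level was in B lineage-like cells, 98.6 CPM from 73 UMIs, and 49.3% of those 67 cells had at least 1 UMI. Those cells held 33.3% of the control library's Rpl3l UMIs, and none of their kind were in the CIA library. Without them the relative ratio was 0.373, without cluster 6 0.377, and without cycling cells 0.472. Macrophage or monocyte-like cells had 2.47 and 1.38 CPM (39 and 47 UMIs). In cluster 5 it had 31 UMIs in the control and 0 in the CIA library, and in endothelial-like cells 23 and 1. Rpl3 showed no like difference, with 1856 CPM in B lineage-like cells, 1356 and 1414 in endothelial-like and 894 and 896 in fibroblast-like cells.

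Some abundant members leaned towards a type in both libraries, by less than 2-fold. Rpl10 took 2.83% of member UMIs in control and 2.80% in CIA macrophage or monocyte-like cells, and 1.73% and 1.79% in endothelial-like cells. Rplp0 was highest in osteoclast-like cells, 4.95% and 5.05%, and lowest in endothelial-like cells, 3.08% and 3.12%. Rpl12, a 60S protein near the stalk, was highest in neutrophil lineage-like cells, 0.544% and 0.503%, and in B lineage-like cells had 820 CPM. Rps12, of the 40S subunit, was also highest in neutrophil lineage-like cells, 2.13% and 2.14%. Rps27a was highest in chondrocyte-like cells, 0.529% and 0.502%, and lowest in endothelial-like cells, 0.344% and 0.303%, without its copy. The ratio of 60S to 40S UMIs was 1.65 in macrophage or monocyte-like and 1.63 in osteoclast-like control cells, and 1.51 in chondrocyte-like ones. Copies and unlisted genes are again left out, so these values do not give the balance of the subunits.

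Over 16 points (8 types in 2 libraries), the level of each gene was correlated with that of the member total. Points of a library share that library and possibly its free RNA. Of the 394 genes with at least 100 UMIs at every point, the 56 members had a median Pearson r of 0.922, 34 of them above 0.9, and the other genes 0.0448. Each member is itself part of the total, so its r is partly built in. The 5 non-members nearest to the total were LOC108352650 (Rps29-ps16 in RefSeq) with 0.964, AC141489.1 with 0.953, LOC100362027 (Rpl30l2) and Rpl36al with 0.952 each, and LOC100360841 (Rpl37-ps5) with 0.95. AC141489.1 has no name in the files. These values describe the points and carry no test.

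Other genes of translation were read from lists that had been set out with earlier results known. Of 5 ribosomal proteins outside the symbol rule, 4 were measured over all kept cells and all were lower in the CIA library, among them Rack1 with 0.972, Rpl22l1 with 0.905 and Rpl36al with 0.775. Of 18 other mRNAs known to carry the pyrimidine tract, 12 were lower, with a median log2 ratio of -0.10, among them the elongation factor Eef1a1 (0.863) and Tpt1 (0.901). Of these 18, 5 were lower in macrophage or monocyte-like cells, with a median of 0.06, and 4 in endothelial-like cells, with a median of 0.07. In chondrocyte-like cells 8 were lower, with a median of 0.03. In fibroblast-like cells 13 were lower (median -0.07), and in lining-like cells 13 (median -0.10). Initiation factors and the mTOR branch had a median of 0.04 and ribosome biogenesis genes one of 0.06 over all kept cells, with no gene of either past the size rule. Mtor, the kinase itself, in macrophage or monocyte-like cells had 3.54 and 8.20 CPM and passed as higher, where 0.43% of all measured genes did. It was the only one of the 17 measured genes of its list to pass there. Myc, which drives ribosome biogenesis, passed as lower in fibroblast-like cells, with 62.7 and 29.6 CPM, and in lining-like cells, with 71.5 and 28.1 CPM. In these types 1.07% and 2.7% of all measured genes passed as lower. No other biogenesis gene passed in either type. Of those measured, 8 of 28 were lower in fibroblast-like cells (median 0.09) and 13 of 26 in lining-like cells (median 0.005).

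The mitochondrial ribosome, whose proteins also come from nuclear genes, did not share the direction of the cytosolic one. Of its 72 genes, 9 were lower in the CIA library over all kept cells and the median log2 ratio was 0.13. Of the 72, 2 were lower in macrophage or monocyte-like cells, with a median of 0.25 where the median of all measured genes was 0.10. In lining-like cells 53 of 71 measured genes were lower, with a median of -0.09, where the cytosolic members had -0.22 and all genes -0.05. None passed the size rule in any of the 4 compared types. In chondrocyte-like cells 6 of 50 measured genes passed as higher, where 6.05% of all measured genes did, Mrpl12 the most with 61.3 and 172 CPM, and Mrps6 passed as lower, where 5.91% of all genes did, with 85.0 and 21.5 CPM. The median of all measured genes in that comparison was 0.27, and that of the cytosolic members -0.33.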

How the data were processed

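The authors deposited UMI counts that had not been normalized, 1 matrix of genes by cells for each of the 2 libraries. Per the submitters' processing notes the build was mRatBN7.2. Aligner, counter, cell caller and strandedness: not given in the sources used here. Libraries had been made with a Chromium 3′ kit, per the labels' protocols, although the cell barcodes in the files are longer than those of that kit. Members, lists and markers were chosen with earlier results of these data known.

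Cells were kept from 200 genes upwards and up to 20% mitochondrial UMIs (45 control and 47 CIA cells failed the limit), and doublets called by Scrublet in scanpy 1.11.5 (62 and 166) were removed. A cell was gated to the type with the largest fraction of markers high (at least 2 UMIs and 2 times the mean level), needing 3; chondrocytes also needed Col2a1. This scoring was set after the data were seen. Clusters came from Leiden at resolution 0.5 on 2000 variable genes without members, 30 components and 15 neighbours. Raw counts were summed per library and type and divided by the sum over all genes present in both. Ratios carry exact conditional intervals (scipy 1.17.1). A gene needed 100 UMIs over both sums. The size rule was tested on simulated data. TMM factors from edgeR 4.0.16 served only as an alternative.

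Genes named in the text are the 5 highest and 5 lowest members, those past the size rule relative to the member total, the 5 most variable across types, the paralogues with their family member, Rplp0, Rplp2 and Rpsa, and the 5 non-members nearest to the member total; further members and list genes were picked after their values were seen. A member and a list gene that the rule names are not reported here. Rpsa had 1353 CPM in the control and 1272 in the CIA library.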

Additional observations from a re-analysis of the deposited data

Results flagged for a closer look

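The member share of UMIs moved in opposite directions between the libraries in different clusters. Only clusters with at least 50 cells in each library were looked at. The CIA over control ratio was above 1 in clusters 2 (1.01), 3 (1.08), 4 (1.04) and 8 (1.01), which hold macrophages and monocytes by their markers. It was below 1 in clusters 0 (0.922) and 1 (0.959) of fibroblasts, in cluster 5 (0.869) and in endothelial cluster 10 (0.960). In cluster 6, led by granule genes but mixed by gate, it was 0.913. With 1 library per group the difference between the clusters was not tested.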

How the results depend on the processing

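No paired analysis was possible because each group had 1 library. The member share over all kept cells stayed lower in the CIA library under all 18 alternatives run, with ratios of 0.863 to 0.946. Among these, the changes of cell type assignment and of the minimum UMIs per gene could not move it, because it uses neither. It was 0.863 without mitochondrial genes and ribosomal RNA models in the denominator, 0.896 without the 50 most abundant other genes, 0.890 with TMM scaling, 0.878 at a mitochondrial limit of 10%, 0.868 in cells of 5000 to 15000 UMIs, 0.876 as the mean of per-cell shares and 0.892 without cycling cells. Alternatives chosen after seeing the data gave 0.877 with copies, 0.887 without B lineage-like cells, 0.901 without cluster 6 and 0.946 with clusters at control weights. The number of compared types with a lower share was 4 of 4, or 3 where types came from clusters (3 compared), where the 50 most abundant other genes were left out (macrophage or monocyte-like 1.00) and without cluster 6 (macrophage or monocyte-like 1.002). Over 17 alternatives the macrophage or monocyte-like ratio ran from 0.926 (TMM scaling) to 1.002. Rpl3l was the member past the size rule in all alternatives but a minimum of 500 UMIs, which it does not reach and which left 0. Changes of cell type assignment or of the denominator of the share could not alter this call. The ratio of Rpl3l per member UMI ran from 0.178 to 0.472. The fibroblast over macrophage ratio of Rpl39l per member UMI ran from 22.3 to 35.9. Depth limits the 5 members under 100 UMIs and the chondrocyte comparison, which rests on 38 CIA cells.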
